A study of Homo sapiens with 6 samples.

Results

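Nonsense-mediated decay is the surveillance pathway that destroys messenger RNAs whose stop codon is recognised as premature. The helicase UPF1 is loaded when a ribosome stops, UPF2 and the UPF3 proteins tie it to exon junction complexes left by splicing, and the kinase SMG1, held in check by SMG8 and SMG9, phosphorylates it. Phosphorylated UPF1 then recruits SMG5 and the endonuclease SMG6, which start the destruction of the transcript. The 9 genes described here are SMG1, SMG5, SMG6, SMG8, SMG9, UPF1, UPF2, UPF3A and UPF3B, and every probe set that the platform annotation assigns to any of them was taken. That gave 15 of 54613 probe sets. Of these, 11 list a single member, covering 6 genes, and 4 list SMG1 together with other genes. No probe set in the annotation used here lists UPF3A or UPF3B, so both were not analysed here. The family was proposed with results of the same comparison in view, SMG9 being among its largest falls, so the members' values are given as a description and no p-value is attached to them.

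The samples were SK-Hep1, a human cell line that was set up from an adenocarcinoma of the liver. The anti-miR-21 group, 3 samples, received 20 nM of an anti-miR-21 compound by lipid transfection, and the mock group, 3 samples, received PBS in place of the compound. RNA was taken 16 hours later and hybridised to single-colour arrays, 1 per sample. All samples are of 1 line at 1 dose and 1 time, and mock cells received no control oligonucleotide. The molecule is labelled total RNA, although the collection protocol cites an Argonaute pull-down, and which fraction was hybridised is not settled by the sources used here. The compound is directed against miR-21, whose mature form is shown because it defines the treatment. It lies at chr17:59841273-59841294 on the plus strand of GRCh38.p14 in RefSeq, with the seed, bases 2 to 8, in capitals. Messenger RNAs that carry AUAAGCU, the complement of that seed, are the candidates for direct repression by the microRNA. Whether the members carry it was not tested, since no transcript sequence was used here. The sequence of the compound itself is not given in the sources used here.
hsa-miR-21-5p: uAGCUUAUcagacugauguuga

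Values are log2 expression, on which 1 unit is a doubling. Probe sets with a mean of at least 4 over the 6 arrays were kept for testing, 22408 in all. Between 22277 and 22591 probe sets per array reached that level. The arrays were alike, with correlations of 0.994 to 0.998. On the first principal component, with 50.4% of the variance, anti-miR-21 replicates 2 and 3 lay at 20.1 and 19.6, anti-miR-21 replicate 1 at 3.51, and the mock arrays between -19.95 and -7.25. Anti-miR-21 replicate 1 therefore stood nearer to mock than its group did. The label of the line could be set against marker genes only in part. All 4 mesenchymal markers were bright, from 10.2 for COL1A1 to 15.7 for VIM. Of 7 hepatocyte markers with a probe set, 5 were below 4, ALB among them at 2.85, and 4 of 5 endothelial markers were below 4. SERPINA1 and AFP, the other hepatocyte markers, were at 11.9 and 4.22. The epithelial markers KRT19 and EPCAM were at 14.2 and 7.33 and CDH1 at 2.39. The leukocyte markers PTPRC, CD3E and CD14 were at 3.21, 1.55 and 5.30, and none of the tested marker genes passed the test for a difference between groups.

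SMG9 was lower in every anti-miR-21 array than in any mock array on both of its bright probe sets, whereas the other members with probe sets of their own had log2 differences between -0.20 and 0.09. SMG9 is a partner of SMG8 that binds SMG1 and restrains its kinase activity. Its probe set 223188_at read 7.41, 7.48 and 7.84 in anti-miR-21 replicates 1, 2 and 3, against 8.54, 8.55 and 8.78 in mock replicates 1, 2 and 3. The groups did not overlap, and the highest anti-miR-21 array lay 0.70 below the lowest mock array. The means were 7.58 ± 0.23 with anti-miR-21 and 8.62 ± 0.14 in mock (SD, n = 3 each). The log2 difference was -1.05 ± 0.13 (SE of the limma fit), a 2.06-fold fall with a 95% interval of 1.67- to 2.55-fold. Among the 22408 kept probe sets it was the 19th largest fall. As bulk values, these do not separate fewer cells that carry the transcript from less transcript per cell. Whether they stand for total or Argonaute-bound transcript is not settled.

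The second SMG9 probe set, 221335_x_at, had the larger fall of the pair. It read 5.80, 5.95 and 6.24 in anti-miR-21 replicates 1, 2 and 3, against 7.83, 7.76 and 8.24 in mock replicates 1, 2 and 3. All 3 anti-miR-21 arrays were again below all 3 mock arrays. The means were 5.99 ± 0.22 with anti-miR-21 and 7.94 ± 0.26 in mock (SD, n = 3 each). The log2 difference was -1.95 ± 0.16 (SE), a 3.86-fold fall with a 95% interval of 2.97- to 5.01-fold, and it was the 2nd largest fall among kept probe sets. The suffix _x_at marks a probe set whose probes can cross-hybridise, so its level is less certain than that of 223188_at. The third SMG9 probe set, 233990_at, was at 2.00 with anti-miR-21 and 1.99 in mock, below the level kept, and gives no measure of the gene.

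Both bright SMG9 probe sets fell, by unequal amounts. Within each array, 221335_x_at minus 223188_at was -1.61, -1.53 and -1.61 in anti-miR-21 replicates 1, 2 and 3, against -0.71, -0.79 and -0.54 in mock replicates 1, 2 and 3. The gap between them was thus 0.90 log2 units wider with anti-miR-21. Over the 6 arrays their values had a Pearson correlation of 0.992, and after removing the group means 0.932. These correlations are descriptions over arrays shared by both probe sets, and the groups set most of the first. On both probe sets replicate 3 was the highest array of its group.

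**Figure D1:**
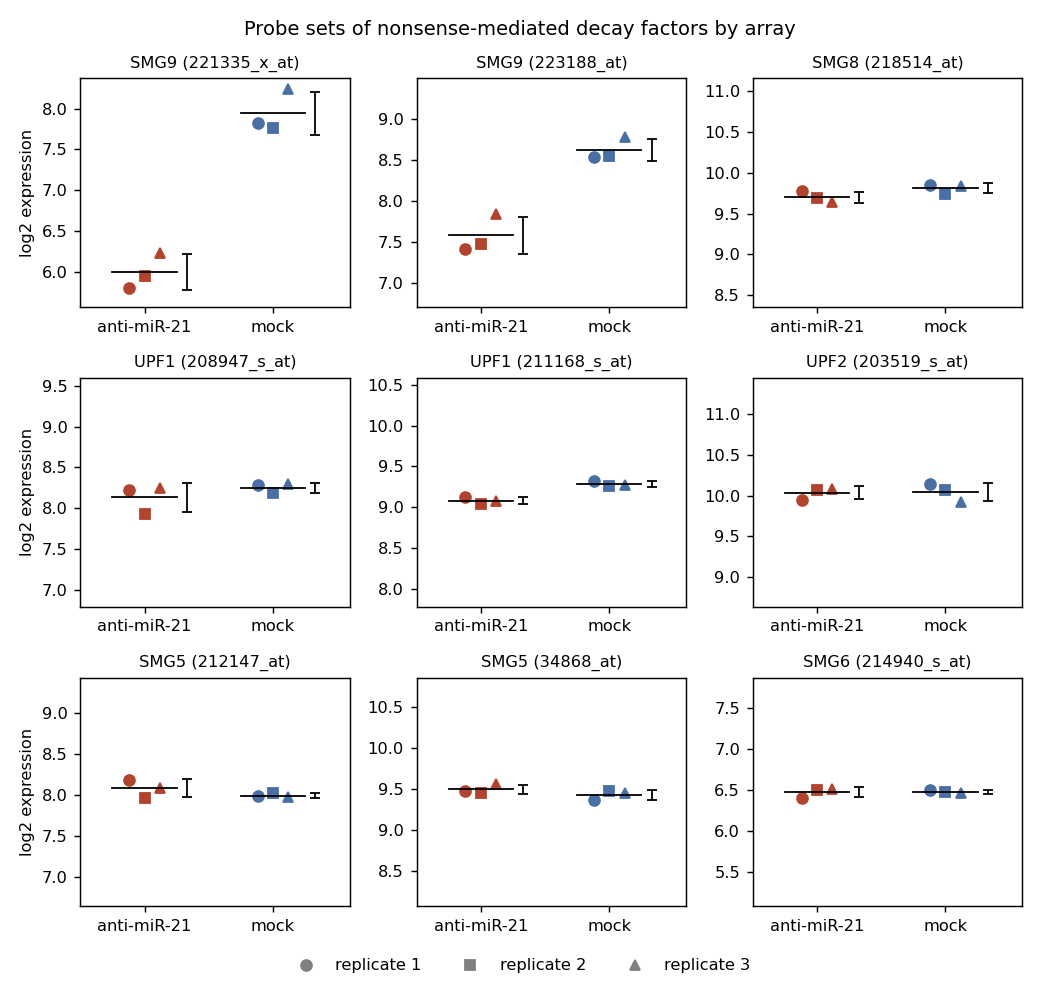
Log2 expression of the 9 kept probe sets that list a single decay factor, 1 panel each with the same span of 2.8 log2 units, for 3 anti-miR-21 arrays (red, left) and 3 mock arrays (blue, right). Symbols mark the replicate number, lines the group mean and bars the SD. The anti-miR-21 and mock arrays are far apart for both SMG9 probe sets and have mean differences between -0.20 and 0.09 in the other 7 panels.

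SMG8, which binds SMG1 with SMG9, had a far smaller difference on its 1 probe set. It read 9.77, 9.69 and 9.64 in anti-miR-21 replicates 1, 2 and 3, against 9.85, 9.74 and 9.84 in mock replicates 1, 2 and 3. The groups overlapped. The log2 difference was -0.11 ± 0.06 (SE), with a 95% interval of -0.25 to 0.03.

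SMG1 itself, the kinase that phosphorylates UPF1, had no probe set of its own. Its gene has many copied segments in the genome, and the 4 probe sets that list it also list BOLA2, alone or with pseudogenes and members of the NPIP family. None of their values can be assigned to SMG1. Probe set 224842_at, listing BOLA2 and SMG1, read 10.96, 11.13 and 11.03 in anti-miR-21 replicates 1, 2 and 3, against 11.07, 10.81 and 10.86 in mock replicates 1, 2 and 3, with overlapping groups and a log2 difference of 0.13 ± 0.08 (SE). Probe set 210057_at, listing the same genes, averaged 5.38 ± 0.31 with anti-miR-21 and 5.25 ± 0.21 in mock (SD, n = 3 each). The third, 237464_at, was below the level kept, at 2.41 with anti-miR-21 and 2.38 in mock.

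The probe set that lists SMG1 with 11 other genes, 244766_at, differed in the other direction. It read 5.45, 5.38 and 4.93 in anti-miR-21 replicates 1, 2 and 3, against 5.87, 5.58 and 5.97 in mock replicates 1, 2 and 3. The groups did not overlap, the log2 difference was -0.55 ± 0.16 (SE), and it did not pass the threshold. Of 6 probe sets that list SMG1 pseudogenes without SMG1, 3 were kept and none passed in limma, with log2 differences of 0.01 to 0.33. The largest of these, on the SMG1P5 probe set, came from anti-miR-21 replicate 2, at 5.47 against 4.30 and 4.23 in replicates 1 and 3 of its group.

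UPF1, the helicase at the centre of the pathway, had a small negative difference on both of its probe sets. The suffix _s_at of both marks probes shared by several transcripts, as it does for UPF2 and SMG6. Probe set 211168_s_at read 9.13, 9.04 and 9.07 in anti-miR-21 replicates 1, 2 and 3, against 9.32, 9.25 and 9.27 in mock replicates 1, 2 and 3. The groups did not overlap, and the log2 difference was -0.20 ± 0.05 (SE), 1.15-fold, with a 95% interval of -0.32 to -0.08. Probe set 208947_s_at read 8.23, 7.93 and 8.25 in anti-miR-21 replicates 1, 2 and 3, against 8.28, 8.18 and 8.29 in mock replicates 1, 2 and 3. Its groups overlapped, its log2 difference was -0.12 ± 0.09 (SE), and without anti-miR-21 replicate 2 it was -0.01. Neither probe set passed the threshold.

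UPF2, which bridges UPF1 and UPF3 proteins, had a log2 difference near 0. Its probe set 203519_s_at read 9.95, 10.07 and 10.09 in anti-miR-21 replicates 1, 2 and 3, against 10.14, 10.07 and 9.92 in mock replicates 1, 2 and 3. The groups overlapped, and the log2 difference was -0.004 ± 0.07 (SE), with a 95% interval of -0.18 to 0.17.

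The factors that act on phosphorylated UPF1 had small differences. SMG5, which helps to steer the transcript to deadenylation and decapping, had 2 probe sets. Probe set 34868_at read 9.48, 9.46 and 9.56 in anti-miR-21 replicates 1, 2 and 3, against 9.36, 9.48 and 9.45 in mock replicates 1, 2 and 3. Probe set 212147_at averaged 8.08 ± 0.11 with anti-miR-21 and 7.99 ± 0.03 in mock (SD, n = 3 each). Both overlapped between groups, with log2 differences of 0.07 ± 0.06 and 0.09 ± 0.07 (SE). SMG6, the endonuclease that cuts near the stop codon, had probe set 214940_s_at at 6.41, 6.51 and 6.51 in anti-miR-21 replicates 1, 2 and 3, against 6.50, 6.47 and 6.46 in mock replicates 1, 2 and 3. Its groups overlapped, and the log2 difference was -0.004 ± 0.05 (SE). A dimmer SMG6 probe set, 220347_at, averaged 2.08 with anti-miR-21 and 2.06 in mock and was not kept.

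Of the 9 kept probe sets that list a single member, 2 passed the threshold of 0.05 on the limma adjusted p, both for SMG9 and both lower with anti-miR-21, and 7 did not pass. Across all kept probe sets 2.17% passed, 1.07% being lower and 1.10% higher. The groups did not overlap for 3 of the 9, all lower (24.0% of all kept probe sets, 12.6% lower). Since the family was chosen from this comparison, nothing is read from these counts. The 7 probe sets outside SMG9 had log2 differences of -0.20 to 0.09, with standard errors of 0.05 to 0.09. The median over the 9 was -0.11, and that over all kept probe sets was -0.003. For UPF2, SMG5, SMG6 and SMG8 each 95% interval covered 0. The interval of UPF1 probe set 208947_s_at, -0.34 to 0.11, covered 0 as well, and that of 211168_s_at did not. None of these intervals, those of UPF1 included, reached a fall as large as that of either SMG9 probe set. SMG9 was picked for its large fall, so this is a description.

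**Figure D2:**
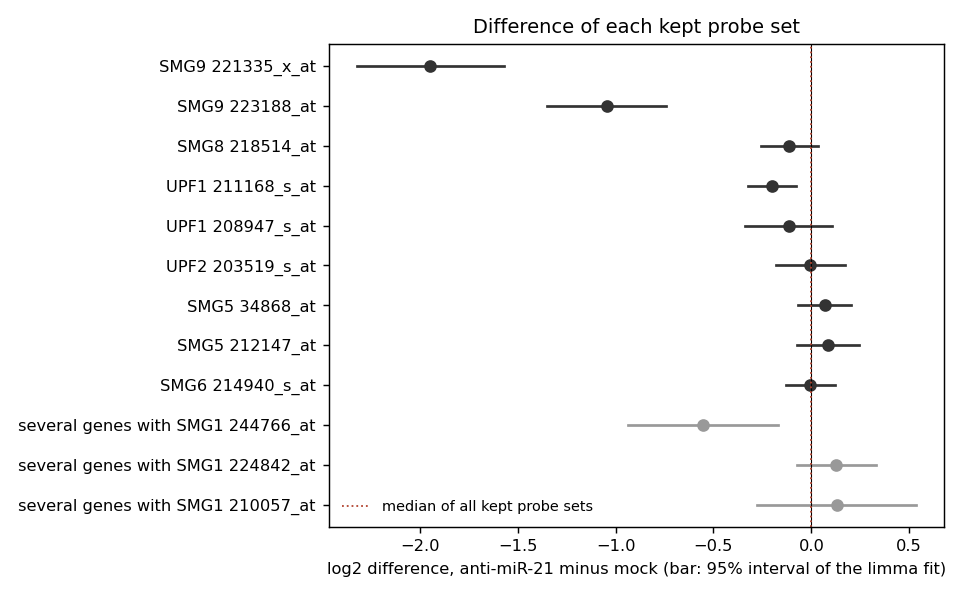
Log2 difference, anti-miR-21 minus mock, of the 12 kept probe sets that list a decay factor, with 95% intervals of the limma fit. Black points list a single member and grey points list SMG1 with other genes. The 2 SMG9 probe sets lie at -1.95 and -1.05, and the other black points between -0.20 and 0.09.

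The genes closest to SMG9 in array pattern lay outside the decay pathway, as nearly all ranked genes do, so nothing is read from that. Among the 10847 other genes with a kept probe set, each taken at its brightest, the Pearson correlation with SMG9 probe set 223188_at over the 6 arrays was highest for HGSNAT at 0.999, RSAD1 at 0.996 and ERAL1 at 0.993. HGSNAT encodes a lysosomal acetyltransferase of heparan sulfate degradation, RSAD1 a radical SAM domain protein, and ERAL1 a mitochondrial ribosome assembly factor. ERAL1 read 8.88, 8.94 and 9.13 in anti-miR-21 replicates 1, 2 and 3, against 9.87, 9.94 and 10.19 in mock replicates 1, 2 and 3. Its difference of -1.02 was close to that of SMG9, whereas RSAD1 differed by -0.52 and HGSNAT by -0.26. In all 3 genes the anti-miR-21 arrays were below the mock arrays and replicate 3 was the highest of its group. Ranked instead on deviations from the group means, the closest were NEDD4L at 0.997, SPATA20 at 0.993 and VPS37B at 0.992. The groups differed by only -0.14, -0.02 and -0.09 in these 3. Of the 10847 genes, 90 were above 0.95 on the first measure and 96 on the second. These ranks are descriptions and were not tested.

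**Figure D3:**
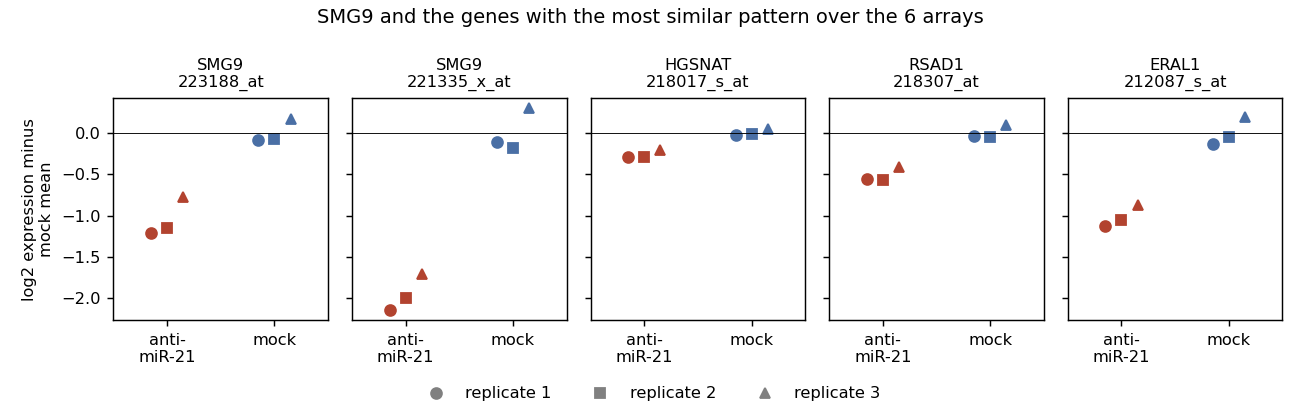
Log2 expression minus the mock mean in each array for both bright SMG9 probe sets and for HGSNAT, RSAD1 and ERAL1, with anti-miR-21 arrays in red on the left, mock arrays in blue on the right and symbols for the replicate number. All 5 probe sets show lower anti-miR-21 arrays, with replicate 3 highest in each group, and their differences run from -1.95 (SMG9) to -0.26 (HGSNAT).

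The genes beside the members on the chromosome were examined next. Neighbours were taken as the nearest protein-coding gene on each side in the RefSeq table of GRCh38.p14, 18 in all, of which 10 were kept, 6 were below the level kept and 2 had no probe set of their own. This list was added after the members' values were seen and was not tested. KCNN4, a potassium channel gene beside SMG9, read 10.93, 10.91 and 11.00 in anti-miR-21 replicates 1, 2 and 3, against 11.02, 11.12 and 11.14 in mock replicates 1, 2 and 3, a log2 difference of -0.15. IRGC, on the other side of SMG9, was not kept, at 2.46 with anti-miR-21 and 2.43 in mock. The largest difference among kept neighbours was for TMEM79, beside SMG5, at 6.94 ± 0.34 with anti-miR-21 and 6.33 ± 0.07 in mock (SD, n = 3 each).

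The rest of the pathway was followed through 6 gene lists, each gene represented by its brightest kept probe set. Over all 10848 genes, 2.13% passed in limma (0.913% higher and 1.22% lower), 18.1% had an unadjusted p under 0.05, and the median log2 difference was -0.018. In 5 of the 6 lists no gene passed on its brightest probe set. The listed genes had 99 further kept probe sets, of which 3 passed in limma, 2 higher (DIS3 and ATF3) and 1 lower (DCP2) with anti-miR-21.

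Among other decay factors, 7 genes were tested and none passed in limma, with 0 at an unadjusted p under 0.05. Their log2 differences ran from -0.11 to 0.08, with a median of 0.04. DHX34, a helicase that promotes phosphorylation of UPF1, had a log2 difference of 0.08 ± 0.06 SE (limma adjusted p = 0.503). NBAS, which acts in decay at the endoplasmic reticulum, had -0.11 ± 0.08 SE (limma adjusted p = 0.517), and PNRC2, which links UPF1 to decapping, had 0.07 ± 0.06 SE (limma adjusted p = 0.569).

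SMG1 belongs to a kinase family that includes ATM, ATR and mTOR and shares its chaperones. Of these relatives and chaperones none of 10 passed in limma, 1 had an unadjusted p under 0.05, 8 had a negative log2 difference and the median was -0.08, against 56.7% negative over all genes. TTI2, a subunit of the TELO2 complex that stabilises these kinases, averaged 8.18 ± 0.21 with anti-miR-21 and 8.61 ± 0.03 in mock (SD, n = 3 each). The groups did not overlap, and the log2 difference was -0.42 ± 0.11 SE (limma adjusted p = 0.105, 0.0245 without anti-miR-21 replicate 1, and up to 0.288 over the alternatives). TELO2 had -0.29 ± 0.14 SE (limma adjusted p = 0.353), while a second TELO2 probe set was at -0.01. RUVBL2, an ATPase of the same assembly line, had -0.09 ± 0.05 SE (limma adjusted p = 0.397).

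In the exon junction complex, whose presence downstream of a stop codon marks it as premature, none of 9 tested genes passed in limma and 0 had an unadjusted p under 0.05, with a median of 0.02. MAGOHB, a core subunit, averaged 10.67 ± 0.10 with anti-miR-21 and 10.16 ± 0.47 in mock (SD, n = 3 each, limma adjusted p = 0.283), with mock replicate 3 at 9.65 and a second probe set at -0.06. PYM1, which removes the complex at the ribosome, had a log2 difference of -0.13 ± 0.06 SE (limma adjusted p = 0.308), and CWC22, which delivers EIF4A3 to it, had 0.22 ± 0.10 SE (limma adjusted p = 0.309). Among factors of termination, the cap and the poly(A) tail, none of 8 passed in limma and 1 had an unadjusted p under 0.05, with a median of -0.01. That was GSPT2, a termination factor that contacts UPF1, at -0.23 ± 0.07 SE (limma adjusted p = 0.159). Its paralog GSPT1 had -0.07 ± 0.05 SE (limma adjusted p = 0.543), and the cap scaffold EIF4G1 had 0.09 ± 0.09 SE (limma adjusted p = 0.634).

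Among enzymes of messenger RNA degradation, none of 40 passed in limma on the brightest probe set and 8 had an unadjusted p under 0.05, against 18.1% of all genes. The median log2 difference was -0.06, and 29 of 40 were negative. DIS3, the catalytic subunit of the exosome, read 9.55, 9.51 and 9.40 in anti-miR-21 replicates 1, 2 and 3, against 9.96, 9.93 and 9.76 in mock replicates 1, 2 and 3. Its log2 difference of -0.40 ± 0.07 SE missed the threshold (limma adjusted p = 0.0501). Its probe sets disagreed, since 218362_s_at rose by 0.95 ± 0.13 SE (limma adjusted p = 0.0228). Probe set 214194_at had 0.32 ± 0.11 SE and 234660_s_at had -0.24 ± 0.10 SE, and neither passed. No direction is therefore given for the gene. The probe sets of DCP2, the decapping enzyme, disagreed as well. Its brightest, 212919_at, had -0.01 ± 0.07 SE (limma adjusted p = 0.95), whereas 244777_at fell to 7.95 ± 0.07 with anti-miR-21, against 8.36 ± 0.02 in mock (SD, n = 3 each), a log2 difference of -0.40 ± 0.05 SE (limma adjusted p = 0.0194), and 235258_at had 0.16 ± 0.08 SE (limma adjusted p = 0.348). PAN3, an adaptor of a deadenylase, had 0.28 ± 0.06 SE (limma adjusted p = 0.0707), and CNOT6L, a deadenylase of the CCR4-NOT complex, had -0.27 ± 0.06 SE (limma adjusted p = 0.0836).

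The last list held transcripts known as substrates of the pathway, and the values of ATF3, DDIT3 and GADD45A were known when it was drawn up. Of 24 listed, 19 were tested, 1 rose, none fell and 18 did not pass in limma. Their median log2 difference was 0.07, with 13 positive and 6 negative. An unadjusted limma p under 0.05 was reached by 9, in both directions, against 18.1% of all genes. Among these 9, BAG1, TBL2, ARHGEF18 and SRSF7 were lower with anti-miR-21 on their brightest probe sets, at -0.25, -0.18, -0.15 and -0.17. The 1 that passed was ATF3, a stress-induced transcription factor, which rose. It read 8.41, 8.98 and 9.17 in anti-miR-21 replicates 1, 2 and 3, against 7.85, 7.70 and 7.82 in mock replicates 1, 2 and 3, a log2 difference of 1.06 ± 0.18 SE (limma adjusted p = 0.0422). A second ATF3 probe set rose as well, by 1.06 ± 0.19 SE (limma adjusted p = 0.0477). DDIT3, a pro-apoptotic stress factor, had 1.07 ± 0.22 SE (limma adjusted p = 0.0718), and GADD45A, a growth arrest gene, had 0.42 ± 0.09 SE (limma adjusted p = 0.0845). In ATF3, DDIT3 and GADD45A anti-miR-21 replicate 1 was the lowest of its group, and this is the array that lay nearest to mock on the first component. On both bright SMG9 probe sets the same array was also the lowest, at 5.80 and 7.41, and there it lay furthest from mock. The call of ATF3 was lost when any 1 array other than anti-miR-21 replicate 1 was left out (limma adjusted p = 0.0792 to 0.161), and also without the filter on low values (limma adjusted p = 0.102) or with the replicate number as a block (limma adjusted p = 0.101). Over all alternatives the limma adjusted p of ATF3 ran from 0.00632 to 0.161.

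The substrates were then grouped by kind, a grouping added later and not tested. Of the 11 stress response messenger RNAs in the list, 9 had a positive log2 difference and the median was 0.23. The 2 negative ones were TBL2 at -0.18 and UPP1 at -0.10, against 56.7% negative over all genes. ATF3 was the 1 that passed in limma, against 2.13% of all genes. ATF3, DDIT3 and GADD45A, whose values were known beforehand, are among these 11 transcripts, so nothing is read from the counts. These transcripts are also induced directly by stress signalling, so slower decay and more transcription cannot be told apart here. Whether their values stand for total or Argonaute-bound transcript is not settled either. ZFAS1, a noncoding RNA that hosts small nucleolar RNAs and was the 1 of 5 such hosts tested, had 0.09 ± 0.08 SE on its brightest probe set (limma adjusted p = 0.598). Of its 3 other probe sets, 2 had 0.07 and 0.09, while 229899_s_at averaged 8.09 ± 0.33 with anti-miR-21 and 7.28 ± 0.17 in mock (SD, n = 3 each). That difference of 0.80 ± 0.17 SE, without overlap of the groups, did not pass (limma adjusted p = 0.0747). The 3 tested splicing factor messenger RNAs, whose decay-sensitive forms carry poison exons, had a median of 0.01 on their brightest probe sets. Their 8 other probe sets ran from -0.18 to 1.00 with a median of 0.22, 5 being positive, and none passed in limma. The highest was SRSF3 probe set 232392_at, at 6.50 ± 0.66 with anti-miR-21 and 5.50 ± 0.18 in mock (SD, n = 3 each, limma adjusted p = 0.162), followed among SRSF3 probe sets by 235324_at at 0.28 ± 0.06 SE (limma adjusted p = 0.0853). Which of these probe sets read a decay-sensitive form was not tested. The 4 remaining messenger RNAs had a median of -0.09.

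**Figure D4:**
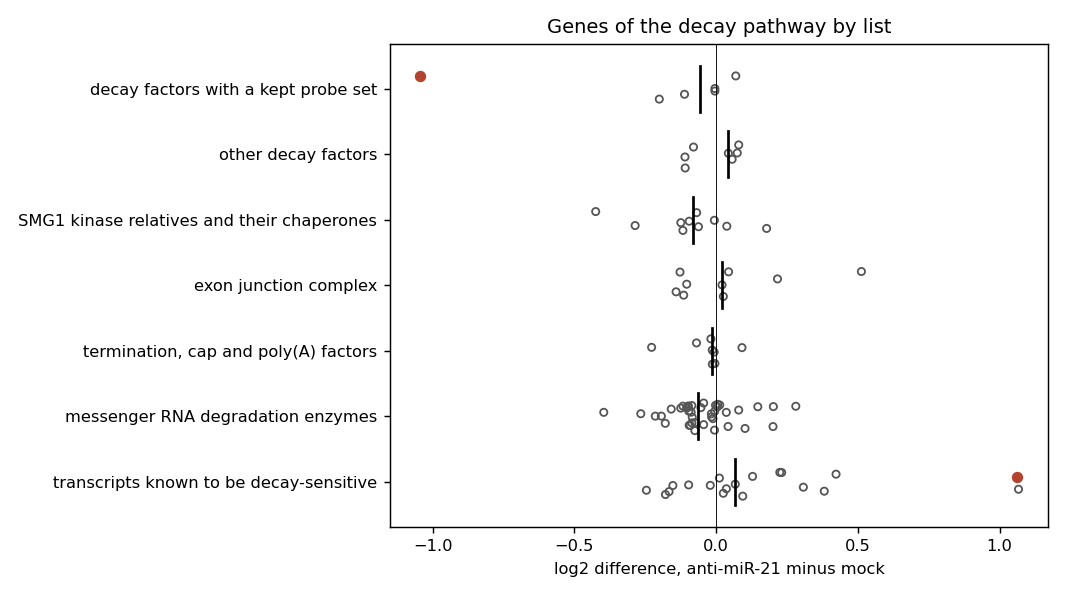
Log2 difference, anti-miR-21 minus mock, of each gene's brightest kept probe set, by list, with filled points for genes that passed in limma and a line at each list's median. The filled points are SMG9 at -1.05 in the top row and ATF3 at 1.06 in the bottom row, and no other listed gene passed on its brightest probe set.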

How the data were processed

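The authors deposited log2 expression values, 1 column per array. Per the submitters' processing notes they come from GCRMA, which corrects background by probe sequence, normalizes between arrays and pulls dim probe sets towards a low level, which shrinks differences there. Its version is not given in the sources used here, and no scanner file was used. Names come from the platform annotation, with symbols checked through Entrez identifiers against RefSeq of GRCh38.p14. Leaving out 62 controls, the file holds 54613 probe sets, of which 41091 list 1 gene, 1801 several and 11721 are unnamed here.

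The test was limma 3.58.1 run under R 4.3.3 (lmFit, then eBayes, 3 against 3 arrays, two-sided, Benjamini-Hochberg over the 22408 kept probe sets). The fit was tested on simulated data. The labels call the replicates biological without describing separate cultures, so a p-value speaks only of the spread among these arrays, whose number limits precision. Same-numbered arrays of both groups had deviations from their group means that correlated at -0.36, -0.27 and -0.002. Arrays of unlike number correlated at -0.23 to 0.40 on the same measure. No effect shared by same-numbered arrays was seen, and the main fit used no pairing. With 3 arrays per group this cannot show whether the samples were handled in pairs.

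Members and lists were chosen with earlier results of these data known. In each list the rule names every gene that passed or, where none did, the 3 with the smallest p, and for likeness the 3 highest correlations under each measure. DDIT3, GADD45A, SLC7A11, ZFAS1, DCP2, SRSF3, SMG1P5, KCNN4, IRGC and TMEM79 fall outside that rule and were named after their values were seen. The same holds for BAG1, TBL2, UPP1, ARHGEF18 and SRSF7.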

Additional observations from a re-analysis of the deposited data

How the results depend on the processing

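Both SMG9 probe sets stayed lower with anti-miR-21 under all 12 alternatives run on them, and 221335_x_at passed in each. SMG9 was chosen for its fall in these same arrays, so these passes are a description and not independent support. For 223188_at the log2 difference with 1 array left out ran from -1.18 to -0.96, and the call was lost without anti-miR-21 replicate 2, mock replicate 2 or mock replicate 3. The count of member probe sets that passed was then 1, and 2 otherwise. The cause was not tested. With 1 array left out, 221335_x_at ran from -2.07 to -1.80. The mean of both SMG9 probe sets differed by -1.50. Over all probe sets, 486 passed, 96 to 572 with 1 array left out, and 91 with the replicate block, under which both SMG9 probe sets still passed and ATF3 did not. That block has fewer residual degrees of freedom. Among decay-sensitive transcripts, 0 passed without the filter or with the replicate block, 2 (ATF3 and DDIT3) with the filter at 6 or with probe sets averaged, and 0 to 4 with 1 array left out. The 4, without anti-miR-21 replicate 1, were ATF3, DDIT3, GADD45A and SLC7A11. Among degradation enzymes 1 passed with the filter at 6 (DIS3), with the trend and robust setting (DIS3) and with probe sets averaged (PAN3). The DIS3 passes are those of its brightest probe set, which was lower with anti-miR-21. With its probe sets averaged DIS3 differed by 0.16 (limma adjusted p = 0.198). Among SMG1 relatives 0 to 1 passed with 1 array left out. Dim probe sets limit what can be said of SMG6 and SMG9 beyond those described.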
